A study of Mus musculus with 14 samples.

Results

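The HoxB cluster of the mouse consists of 10 genes on chromosome 11, Hoxb1 to Hoxb9 and Hoxb13, and all 10 were found by their Entrez identifiers among the 24454 genes of the count table. They were followed through 14 RNA-seq libraries from 5 cell populations that were isolated by flow cytometry from forelimb buds of Sox9 IRES-EGFP embryos on a mixed Swiss Albino background. The prefixes S9+ and S9- mark the presence or absence of this EGFP, a readout of Sox9, which encodes the main transcription factor of cartilage formation. All populations were depleted of dead cells and of cells with markers of blood, endothelium and epithelium.

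The S9-JAG1+ LMPs (limb bud mesenchymal progenitors, 3 libraries) lack EGFP and SCA-1 and carry JAG1, a ligand of Notch, on their surface. The S9-Pαhi LMPs (3 libraries) lack EGFP, JAG1 and SCA-1 and have high PDGFRα. The S9+Pαhi OCPs (osteo-chondrogenic progenitors, 3 libraries) have EGFP and high PDGFRα. These 3 populations and the S9-SCA-1+ cells (2 libraries, replicates 2 and 3), which lack EGFP and JAG1, are labelled E10.5. The S9+PαhiCol2a1+ chondroblasts (3 libraries) are labelled E11.5 and their stated gate is that of the OCPs, so that stage and cell state cannot be told apart in any comparison with them. The cells of each library came from pooled limb buds of embryos of both sexes, and p-values here measure only the spread between these samples. In such bulk libraries, fewer cells of a type and less RNA per cell cannot be told apart. Library totals ranged from 20316583 to 29162751 counts. Sox9 itself stood between 411 and 625 CPM (counts scaled to a common library total) in the 6 libraries with EGFP and between 7.41 and 65.4 CPM in the 8 without.

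Hox genes encode homeodomain transcription factors, and mammals have 4 clusters of them, HoxA to HoxD. Within a cluster the genes lie in the order in which they are switched on in time and along the body axis, with Hoxb1 at the early, anterior end and Hoxb13 at the late, posterior end. HoxA and HoxD genes pattern the segments of the limb. HoxB genes are best known from the hindbrain, the vertebral column and the lateral plate mesoderm from which the forelimb bud arises. Their proteins bind DNA together with cofactors of the Meis and Pbx families. Meis proteins mark the proximal part of the limb bud.

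In GRCm38 the 9 genes from Hoxb1 to Hoxb9 span 96.924 kb on the plus strand (chr11:96271330-96368254), and 74.72 kb separate Hoxb9 from Hoxb13 (chr11:96194316-96196610). Hoxb9 lies at chr11:96271330-96276595, Hoxb8 at chr11:96279401-96285325, Hoxb7 at chr11:96285604-96290163, Hoxb6 at chr11:96292814-96301569 and Hoxb5 at chr11:96303512-96306121. Hoxb3 is annotated at chr11:96307101-96347930 and reaches over Hoxb4 (chr11:96318267-96321638), with which it shares no exon base. Hoxb2 lies at chr11:96351632-96354020 and Hoxb1 at chr11:96365746-96368254. The antisense transcript Hoxb3os overlaps 52.9% of the exon bases of Hoxb3 and 27.3% of those of Hoxb2, and Hoxb5os overlaps 3.59% of those of Hoxb5. Whether the counting used strand is not given in the sources used here, so that reads of Hoxb3 and Hoxb2 cannot be told from reads of Hoxb3os, which is not analysed here.

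Levels are given as CPM on scaled library totals, and a level of up to 3 counts in a library (0.101 to 0.149 CPM) cannot be told from absence. Of the 10 genes, 9 passed the filter on low counts and Hoxb13 did not. Hoxb1 passed it only through the few libraries with its reads. All tests were edgeR quasi-likelihood tests over 15125 genes with Benjamini-Hochberg adjustment. Calling a gene required an adjusted p no higher than 0.1 together with a log2 fold change of 1.2 or more in size.

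Some libraries stood apart from the others of their population. In chondroblast replicate 3, the 10 HoxB genes together had 276 counts, against 2864 and 2183 in chondroblast replicates 1 and 2. JAG1+ replicate 3 was the library with the most Hoxb1 and Hoxb13, and 7 markers of tail bud and posterior axial mesoderm (Cdx1, Cdx2, Cdx4, Wnt3a, Tbx6, Msgn1 and Fgf17) summed to 22.4 CPM in it and to between 1.54 and 5.32 CPM in the other libraries, with 0 of the 7 markers at 0 counts in it and 1 to 4 at 0 in each of the others. JAG1+ replicate 1 had the highest sum of 6 flank and heart mesoderm markers, 18.9 CPM against 0.525 to 6.84 CPM elsewhere. The part of these markers in the HoxB levels was not tested. Results that rest on these libraries are given with and without them. In the SCA-1+ cells, 9 myogenic markers summed to between 2007 and 2062 CPM, against at most 143 CPM in any other library. SCA-1+ replicate 3 also had 3220 CPM of red blood cell markers, against at most 116 CPM elsewhere, and the summed HoxB level was 71.5 CPM in SCA-1+ replicate 2 and 71.1 CPM in replicate 3.

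**Figure D1:**
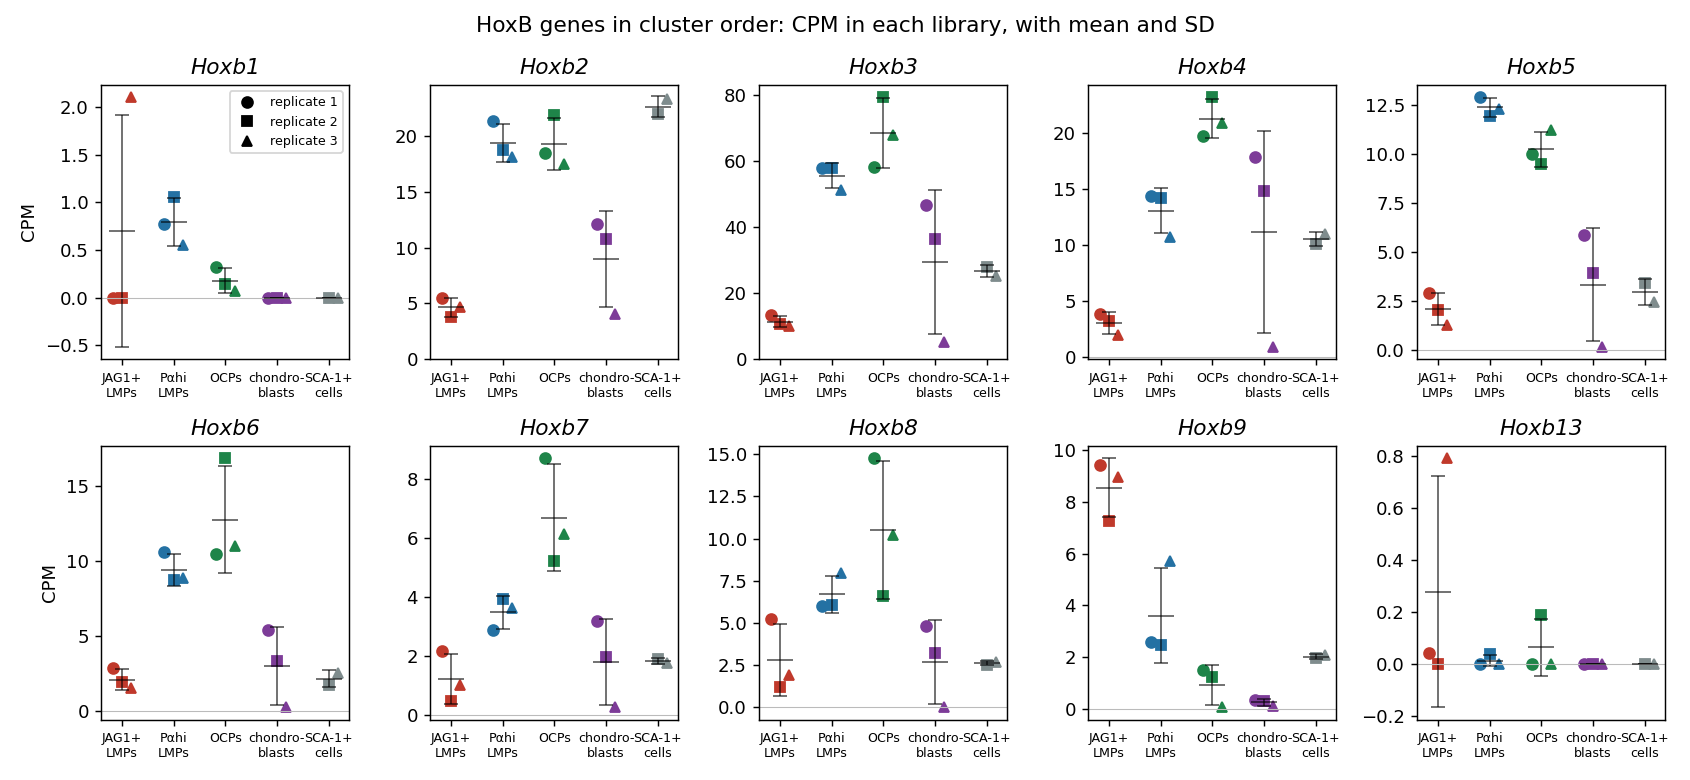
CPM (vertical axis, linear, with its own range in each panel) of the 10 HoxB genes in the 14 libraries of the 5 populations; marker shapes give the replicate number and black lines the mean and SD. Hoxb2 to Hoxb7 sit lower in the JAG1+ LMPs than in the Pαhi LMPs and OCPs, Hoxb9 sits highest there, and chondroblast replicate 3 lies below the other chondroblast libraries for Hoxb2 to Hoxb9.

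All 9 tested HoxB genes differed among the 5 populations in the joint test, where 74.8% of all tested genes did so. Nothing is read from the result of Hoxb1 among them, since it passed the filter on low counts only through the few libraries with its reads. The cluster divided into 2 patterns. Hoxb2 to Hoxb7 were low in the JAG1+ LMPs relative to the Pαhi LMPs and OCPs. Hoxb8 was highest in the OCPs, and its mean in the JAG1+ LMPs (2.79 CPM) lay beside those of the chondroblasts (2.69 CPM) and SCA-1+ cells (2.61 CPM). Hoxb9 had another order, with its highest levels in the JAG1+ LMPs and its lowest in the chondroblasts.

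Hoxb3, which acts with its paralogues in the hindbrain and in the organs of the throat, had the most reads of the cluster in every population. It stood at 13.3, 10.6 and 10.0 CPM in the JAG1+ LMPs, at 57.7, 57.7 and 51.0 CPM in the Pαhi LMPs, at 58.2, 79.2 and 67.8 CPM in the OCPs, at 46.7, 36.3 and 5.10 CPM in the chondroblasts and at 27.9 and 25.2 CPM in the SCA-1+ cells. Every OCP library lay above every library of the other populations, though the lowest (58.2 CPM) was close to the highest Pαhi libraries (57.7 CPM). For the OCPs, Pαhi LMPs and SCA-1+ cells, the share of all tested genes with such a separation was not counted. Their separations, here and for the genes below, therefore describe the libraries only. Every JAG1+ library lay below all others except chondroblast replicate 3.

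Hoxb2, a gene of the hindbrain and of facial motor neurons, was the member whose own highest levels were in the SCA-1+ cells, at 22.0 and 23.3 CPM, above every other library. It stood at 5.48, 3.73 and 4.68 CPM in the JAG1+ LMPs, at 21.3, 18.7 and 18.1 CPM in the Pαhi LMPs, at 18.5, 21.9 and 17.5 CPM in the OCPs and at 12.1, 10.8 and 4.04 CPM in the chondroblasts. The SCA-1+, Pαhi and OCP levels were close to each other, and neither step between neighbours in this order (SCA-1+ cells to Pαhi LMPs, adjusted p=0.649; Pαhi LMPs to OCPs, adjusted p=0.983) passed the test.

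Hoxb4, known from the neck vertebrae and from blood stem cells, followed Hoxb3 in order. It stood at 3.85, 3.18 and 1.90 CPM in the JAG1+ LMPs, at 14.3, 14.1 and 10.7 CPM in the Pαhi LMPs, at 19.7, 23.2 and 20.9 CPM in the OCPs, at 17.8, 14.8 and 0.903 CPM in the chondroblasts and at 10.0 and 10.9 CPM in the SCA-1+ cells. The OCPs did not overlap with any other population, while chondroblast replicates 1 and 2 lay above all Pαhi libraries.

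Hoxb5, which helps to set the position of the forelimb along the body, had its highest levels in the Pαhi LMPs. It stood at 2.91, 2.01 and 1.27 CPM in the JAG1+ LMPs, at 12.9, 12.0 and 12.3 CPM in the Pαhi LMPs, at 9.98, 9.51 and 11.2 CPM in the OCPs, at 5.85, 3.93 and 0.157 CPM in the chondroblasts and at 3.43 and 2.46 CPM in the SCA-1+ cells. The 3 Pαhi libraries lay above all others, although the step down to the OCPs was small (log2 fold change of OCPs against Pαhi LMPs -0.27±0.53 SE, adjusted p=0.765).

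Hoxb6, a gene of the posterior lateral plate mesoderm, stood at 2.83, 1.93 and 1.51 CPM in the JAG1+ LMPs, at 10.6, 8.69 and 8.82 CPM in the Pαhi LMPs, at 10.4, 16.8 and 11.0 CPM in the OCPs, at 5.41, 3.35 and 0.236 CPM in the chondroblasts and at 1.75 and 2.53 CPM in the SCA-1+ cells. The SCA-1+ cells and the JAG1+ LMPs overlapped, and so did the Pαhi LMPs and OCPs.

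Hoxb7, whose promoter is widely used to mark the kidney duct, stood at 2.18, 0.503 and 1.03 CPM in the JAG1+ LMPs, at 2.89, 3.95 and 3.64 CPM in the Pαhi LMPs, at 8.72, 5.23 and 6.15 CPM in the OCPs, at 3.19, 1.98 and 0.275 CPM in the chondroblasts and at 1.92 and 1.78 CPM in the SCA-1+ cells. Hoxb8, whose forced expression in the anterior limb bud can induce ectopic Shh, stood at 5.22, 1.22 and 1.94 CPM in the JAG1+ LMPs, at 6.02, 6.09 and 7.97 CPM in the Pαhi LMPs, at 14.8, 6.61 and 10.2 CPM in the OCPs, at 4.84, 3.22 and 0 CPM in the chondroblasts and at 2.52 and 2.71 CPM in the SCA-1+ cells. For Hoxb7 the OCP libraries lay above every other library, again without a share of all genes to set beside it, whereas the OCPs and Pαhi LMPs overlapped for Hoxb8.

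Hoxb9, which acts with its paralogues on the ribs and on the forelimb expression of Shh, stood at 9.42, 7.25 and 8.96 CPM in the JAG1+ LMPs, at 2.60, 2.48 and 5.73 CPM in the Pαhi LMPs, at 1.5, 1.24 and 0.0723 CPM in the OCPs, at 0.370, 0.308 and 0.118 CPM in the chondroblasts and at 1.96 and 2.10 CPM in the SCA-1+ cells. Every JAG1+ library lay above every other library, a separation shown by 6.72% of all tested genes. OCP replicate 3 and chondroblast replicate 3 had at most 3 counts.

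Hoxb1, which specifies a hindbrain segment, had 53 counts in JAG1+ replicate 3 and none in JAG1+ replicates 1 and 2. It had 19, 28 and 11 counts in the Pαhi LMPs and 8, 3 and 2 counts in the OCPs. No read was counted in the 3 chondroblast or the 2 SCA-1+ libraries. The mean of the Pαhi LMPs (0.791±0.253 CPM, SD, n=3) was at least 22.3-fold higher than the chondroblasts and at least 14.9-fold higher than the SCA-1+ cells, taking 3 counts over the libraries of each of those groups as the level that a count of 0 allows. These bounds hold for the mean as measured and leave out the spread of the Pαhi libraries (0.548 to 1.05 CPM). Hoxb13, a gene of the tail and the prostate, had 20 of its 26 counts in JAG1+ replicate 3.

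The promoter windows of 3 members (Hoxb1, Hoxb4 and Hoxb8) were read from RefSeq sequence of GRCm38, around the annotated start of each gene, and searched on both strands for short motifs. The Hoxb8 window holds the letters TTTATG, bound by Cdx proteins that act upstream of posterior Hox genes, at 2 places on opposite strands. They are shown in capitals in a stretch of 30 bases upstream of the RefSeq start of Hoxb8 (chr11:96281743-96281772, plus strand), which lies inside the longer span annotated for the gene above, and the Hoxb1 line shows its Pbx-Hox motif (TGATNNAT) in capitals at chr11:96365587-96365612, plus strand, because Cdx genes and Hox cofactors are among the gene lists followed here.
Hoxb8, Cdx: cagctTTTATGcgctgcagCATAAAcaaca
Hoxb1, Pbx-Hox: attggggggTGATGGATgggcgctgg
TTTATG occurs in 11.9% and TGATNNAT in 8.85% of the 32851 promoter windows of the same length. The Hoxb8 window also holds TGATNNAT on the minus strand, and in the Hoxb1 window these letters follow CCAAT on the minus strand. In the Hoxb4 window none of the searched motifs was found, which besides Pbx-Hox and Cdx were the Meis motif, the CCAAT box, the TATA box (TATAAA) and the DR5 retinoic acid response element. TGACAG, bound by Meis proteins, was found in none of the 3 windows and in 19.2% of all windows. CCAAT occurs in 37.4%, TATAAA in 13.6% and the DR5 element, in its pair of spellings, in 0.00913% and 0.0244% of them. The Hoxb8 window holds CCAAT and TATAAA, and the Hoxb1 window CCAAT. Such matches are descriptions of the letters and do not show binding.

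To compare genes with each other, levels were divided by the transcript length in the table (CPM per kb). On this scale the summed level of the cluster was 15.5±3.52 (SD, n=3) in the JAG1+ LMPs, 52.5±2.25 (n=3) in the Pαhi LMPs, 63.3±4.82 (n=3) in the OCPs, 24.3±17.6 (n=3) in the chondroblasts and 31.5±0.395 (n=2) in the SCA-1+ cells. In chondroblast replicates 1 to 3 it was 38.6, 29.7 and 4.73. The OCPs lay above all Pαhi libraries, and these above all libraries of the other populations.

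The make-up of the cluster also differed. Hoxb9 made up 20.8±2.44% (SD, n=3) of the summed CPM per kb in the JAG1+ LMPs, 2.57±1.41% in the Pαhi LMPs, 0.541±0.447% in the OCPs, 0.554±0.320% in the chondroblasts and 2.39±0.0886% (n=2) in the SCA-1+ cells. Hoxb2, Hoxb3 and Hoxb4 together made up 79.8±0.0532% (n=2) in the SCA-1+ cells and 77.8±9.97% (n=3) in the chondroblasts, against 60.7±2.73% in the Pαhi LMPs, 60.7±3.50% in the OCPs and 46.0±4.54% in the JAG1+ LMPs. In chondroblast replicates 1 to 3 this share was 69.8, 74.7 and 89.0%, so that replicates 1 and 2 lay below the SCA-1+ cells and replicate 3 above them. Hoxb5 to Hoxb8 accounted for 36.0±1.51% in the Pαhi LMPs and 38.5±3.30% in the OCPs, for 29.4±7.83% in the JAG1+ LMPs and 21.6±10.3% in the chondroblasts, and for 17.8±0.142% in the SCA-1+ cells. Their share in chondroblast replicates 1 to 3 was 29.9, 24.9 and 10.1%. In the JAG1+ LMPs the mean levels of the leading members were close to each other, at 3.16 CPM per kb for Hoxb9, 3.04 for Hoxb3 and 2.84 for Hoxb2, whereas in the OCPs Hoxb9 stood at 0.347 and Hoxb3 at 18.4 CPM per kb.

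The first comparison sets the JAG1+ against the Pαhi LMPs, both without Sox9 EGFP. Hoxb2 to Hoxb7 fell and Hoxb9 rose, so that 6 of the 9 tested members were called lower and 1 higher. Of all tested genes, 4.42% were called lower and 2.58% higher. The log2 fold changes of the members called lower ranged from -1.5±0.58 (SE) for Hoxb7 (adjusted p=0.0815) to -2.59±0.60 for Hoxb5 (adjusted p=0.0065). Hoxb2 fell by 2.07 on the log2 scale (SE 0.29, adjusted p=0.000148), Hoxb3 by 2.30 (SE 0.49, adjusted p=0.0038), Hoxb4 by 2.14 (SE 0.62, adjusted p=0.0248) and Hoxb6 by 2.17 (SE 0.57, adjusted p=0.0136). Hoxb8 had a log2 fold change of -1.26±0.72 (adjusted p=0.247). The median over the 9 tested members was -2.07, against 0.0025 over all tested genes.

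Hoxb9 had a log2 fold change of 1.26±0.48 (SE, adjusted p=0.0783) in the same comparison. Of the 14 fits that left out 1 library each, all called Hoxb2 to Hoxb6, 5 called Hoxb7 (highest adjusted p 0.25) and 7 called Hoxb9 (highest adjusted p 0.243). The call of Hoxb9 was lost without any 1 of the JAG1+ libraries, of Pαhi replicates 1 and 2 or of the SCA-1+ libraries, and that of Hoxb7 without any 1 of JAG1+ replicates 2 and 3, the Pαhi libraries, OCP replicate 3, chondroblast replicate 2 and the SCA-1+ libraries. Without chondroblast replicate 3, Hoxb8 was called as well (log2 fold change -1.27±0.42, adjusted p=0.05), as it was without JAG1+ replicate 1 (-2.07), and the standard error of Hoxb3 was 0.14. Against the OCPs, Hoxb9 was higher in the JAG1+ LMPs by a log2 fold change of 3.22±0.55 (adjusted p=0.000342) and Hoxb2 to Hoxb8 were all called lower, from -1.92±0.72 for Hoxb8 (adjusted p=0.0458) to -2.84±0.62 for Hoxb4 (adjusted p=0.00248). The share of all tested genes called in this pair was not counted, so that these calls describe the members only.

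Set against the mean level of all 4 other populations, the JAG1+ LMPs had lower Hoxb2 to Hoxb7, 6 of 9 tested members where 7.70% of all genes were called lower. Hoxb1 and Hoxb9 were called higher, 2 of 9 where 2.88% of all genes were. Hoxb9 had a log2 fold change of 2.88±0.36 (SE, adjusted p=2.48e-05) and was called in all 14 fits that left out 1 library. Hoxb1 rested on JAG1+ replicate 3, without which no Hoxb1 read remained in the JAG1+ LMPs. Nothing is read from its call, since it passed the filter on low counts only through libraries where it is high. Without JAG1+ replicate 3, 3 members were called lower (Hoxb2, Hoxb3 and Hoxb4), and Hoxb5 (-1.26±0.61, adjusted p=0.129), Hoxb6 (-1.14±0.58, adjusted p=0.153) and Hoxb7 (-1.15±0.60, adjusted p=0.162) were not. Hoxb6 and Hoxb7 also lost their calls without JAG1+ replicate 2 or chondroblast replicate 1 (highest adjusted p 0.153 and 0.218). A fit without both JAG1+ and chondroblast replicate 3 was chosen after seeing the data. It called Hoxb5 (-1.41±0.21, adjusted p=0.000345), Hoxb6 (-1.28±0.27, adjusted p=0.00376) and Hoxb7 (-1.28±0.41, adjusted p=0.0335) lower, but not Hoxb8 (-0.70±0.42, adjusted p=0.232). With chondroblast replicate 3 left out, the JAG1+ libraries lay below all others for 3 members, Hoxb2, Hoxb3 and Hoxb4, a separation that 7.44% of all tested genes showed.

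**Figure D2:**
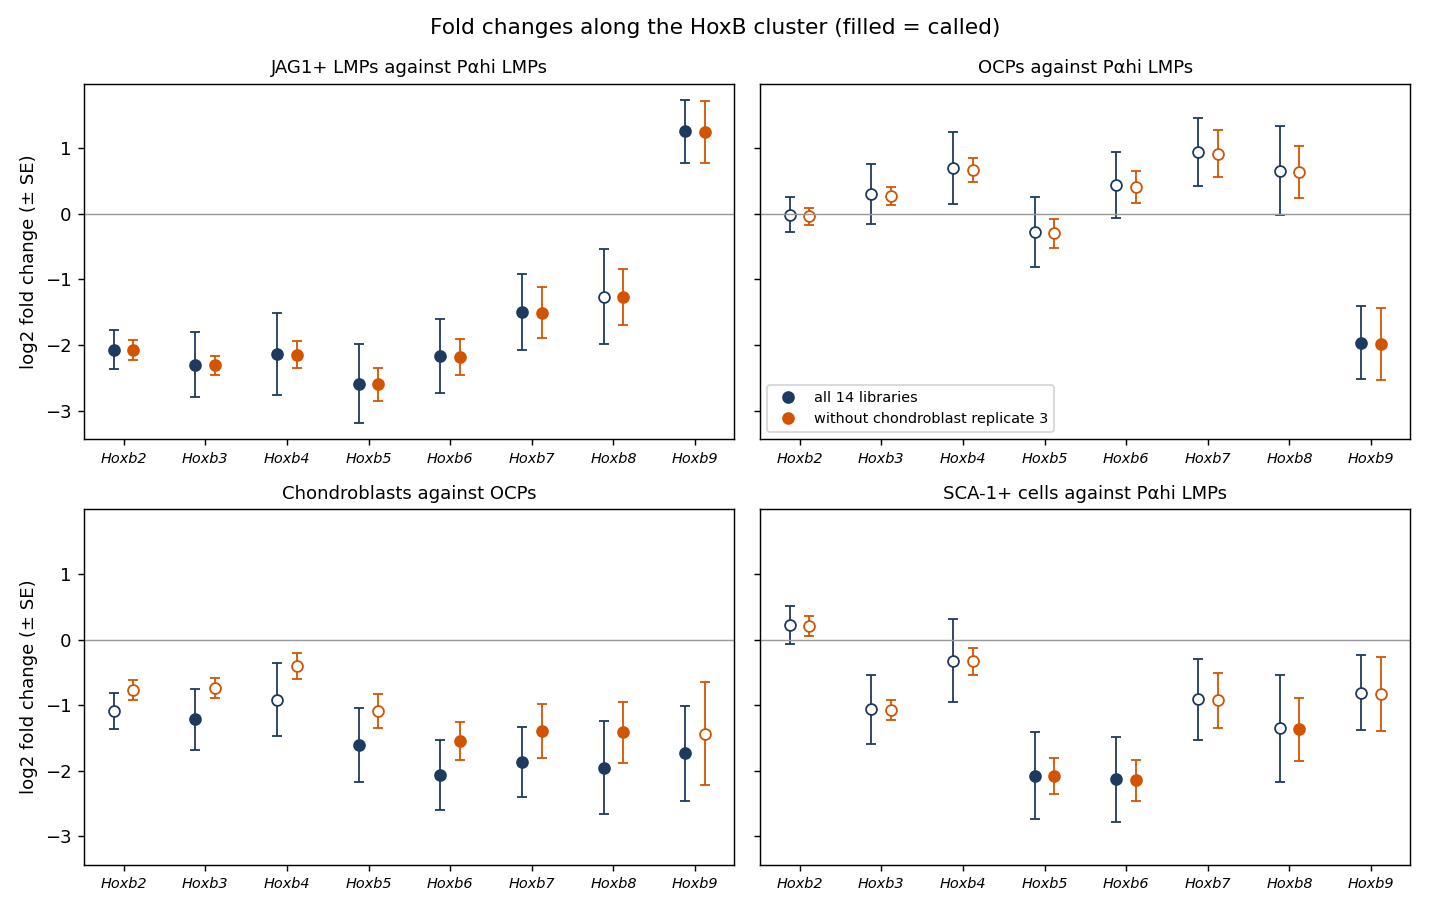
Log2 fold changes with standard errors (vertical axis) of Hoxb2 to Hoxb9 in cluster order for 4 pairs of populations, with all 14 libraries (dark blue) and without chondroblast replicate 3 (orange); filled points were called. In the JAG1+ LMPs against the Pαhi LMPs, Hoxb2 to Hoxb8 lie below 0 and Hoxb9 above, and in the OCPs against the Pαhi LMPs Hoxb9 is called (-1.96).

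The second comparison, of OCPs with Pαhi LMPs, asks what differs between cells with high PDGFRα that have Sox9 EGFP and those that lack it. A single member, Hoxb9, was called, with a log2 fold change of -1.96±0.56 (SE, adjusted p=0.0334), where 1.36% of all genes were called lower. Hoxb2 differed by -0.01±0.27 (adjusted p=0.983), Hoxb3 by 0.30±0.45 (adjusted p=0.692), Hoxb6 by 0.44±0.51 (adjusted p=0.593) and Hoxb7 by 0.94±0.52 (adjusted p=0.245), and none of them was called. Hoxb9 was called in 13 of 14 fits that left out 1 library. The exception was the fit without Pαhi replicate 3 (-1.40, adjusted p=0.16), the library with the most Hoxb9 of the Pαhi LMPs. Without JAG1+ replicate 3, 2 members were called, the second being Hoxb1 (8, 3 and 2 counts in the OCPs). Nothing is read from this Hoxb1 call, since the gene passed the filter only through the few libraries with its reads.

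Relative to the mean of all 4 others, the Pαhi LMPs had 4 members called higher (Hoxb1, Hoxb5, Hoxb6 and Hoxb9), where 1.53% of all genes were. Hoxb1 passed the filter on low counts only through libraries where it is high, so that nothing is read from its call, and the call was lost without any 1 of the 3 Pαhi libraries (19, 28 and 11 counts). Hoxb5 rose by a log2 fold change of 1.70±0.41 (SE, adjusted p=0.0131) and Hoxb6 by 1.37±0.40 (adjusted p=0.0389). The Hoxb9 value was 1.30±0.40 (adjusted p=0.0516), and without Pαhi replicate 3 the count of called members was 1 (Hoxb5). Without Pαhi replicate 1 it was 2, and Hoxb9 also lost its call without OCP replicate 3. The OCPs had 6 members called higher, Hoxb3 to Hoxb8, where 3.37% of all genes were. Their log2 fold changes ranged from 1.36±0.41 for Hoxb5 (adjusted p=0.0304) to 1.92±0.39 for Hoxb6 (adjusted p=0.00256), and Hoxb3, Hoxb4, Hoxb6 and Hoxb7 were called in all 14 fits that left out 1 library. Hoxb5 lost its call without OCP replicate 3 (adjusted p=0.115) and Hoxb8 without OCP replicate 1 (adjusted p=0.103). These 5 comparisons use the same libraries and are not independent of each other.

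The third comparison sets the chondroblasts of E11.5 against the OCPs of E10.5. In all, 6 of 9 tested members were called lower (Hoxb3 and Hoxb5 to Hoxb9), where 1.16% of all genes were. Hoxb6 fell by 2.06 on the log2 scale (SE 0.54, adjusted p=0.0125), Hoxb7 by 1.86 (SE 0.54, adjusted p=0.0205) and Hoxb8 by 1.95 (SE 0.71, adjusted p=0.0568). Hoxb2 had a log2 fold change of -1.09±0.27 (adjusted p=0.00985), under the fold limit. Without chondroblast replicate 3, 3 members were called lower: Hoxb6 (-1.55±0.29, adjusted p=0.00265), Hoxb7 (-1.39±0.41, adjusted p=0.0296) and Hoxb8 (-1.41±0.46, adjusted p=0.0475). Hoxb5 then had -1.09±0.26 (adjusted p=0.0108), Hoxb3 -0.74±0.15 (adjusted p=0.00478) and Hoxb4 -0.40±0.20 (adjusted p=0.184). Hoxb3 also lost its call without OCP replicate 2 or 3 (highest adjusted p=0.108) and Hoxb8 without OCP replicate 1 or chondroblast replicate 2 (highest adjusted p=0.143), and Hoxb9 was called in 4 of the 14 fits, those without JAG1+ replicate 2, Pαhi replicate 2 or 3, or OCP replicate 3 (highest adjusted p=0.34). Relative to all 4 other populations, Hoxb9 was the member called lower in the chondroblasts (-3.32±0.59, adjusted p=0.00026), where 1.71% of all genes were, and it was called in all 14 fits that left out 1 library. Without chondroblast replicate 1, 5 members were called.

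In chondroblast replicate 3, 7 members could be set against replicates 1 and 2 because their mean there was at least 1 CPM. Of these, 6 (Hoxb3 to Hoxb8) were under 25% of that mean, as were 3 of the 21 other Hox genes at this level (Hoxc4, Hoxc5 and Hoxc6) and 0.476% of the 13248 genes. Hoxb5 was at 3.21% of the mean of replicates 1 and 2 (95% exact binomial interval of the counts 0.867 to 8.29%), Hoxb4 at 5.54% (3.49 to 8.35%), Hoxb3 at 12.3% (10.2 to 14.7%) and Hoxb2 at 35.3% (28.4 to 43.5%). Hoxb8 had no read in it, with an upper bound of 3.62%. The intervals cover counting error only, and this contrast of single libraries of one population has no replicate.

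The chondrocyte genes named here were highest in replicate 3. Sox9 stood at 411, 571 and 625 CPM in replicates 1 to 3, and Col2a1, the main collagen of cartilage, at 1274, 1451 and 1885 CPM. The proximal limb bud genes Meis1 (55.1, 41.0 and 12.2 CPM), Meis2 (115, 86.6 and 15.7 CPM), Irx3 (79.7, 50.4 and 5.57 CPM) and Irx5 (33.7, 22.3 and 2.20 CPM) were low in replicate 3 along with HoxB. Rarb, a retinoic acid receptor that is itself a retinoic acid target, stood at 20.7, 15.9 and 3.93 CPM. The other proximal marker, Pknox2, had the opposite order, with 24.3, 35.9 and 44.4 CPM. The sum of 5 proximal markers (Meis1, Meis2, Irx3, Irx5 and Pknox2) was 308, 236 and 80.2 CPM in the chondroblasts. The part of the proximal genes in the HoxB result was not tested.

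**Figure D3:**
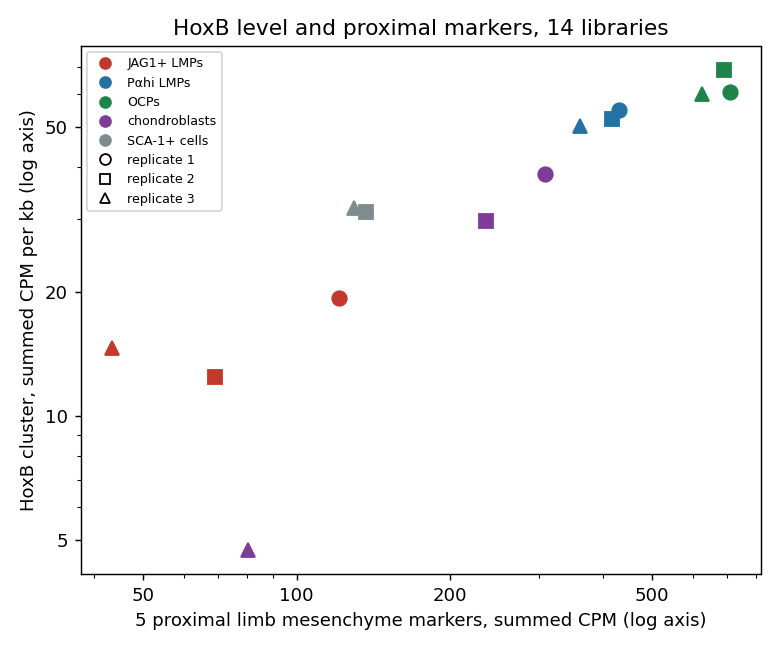
Summed CPM per kb of the 10 HoxB genes (vertical log axis) against the summed CPM of 5 proximal limb mesenchyme markers (horizontal log axis) in the 14 libraries; colours give the population and shapes the replicate. OCPs and Pαhi LMPs lie at the upper right, JAG1+ LMPs and chondroblast replicate 3 at the lower left, and the SCA-1+ cells lie between them, with 31.2 and 31.8 CPM per kb of HoxB at 137 and 129 CPM of the markers.

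The fourth comparison, of SCA-1+ cells with Pαhi LMPs, concerns cells with myogenic markers. Hoxb5 fell by 2.07 on the log2 scale (SE 0.66, adjusted p=0.0344) and Hoxb6 by 2.13 (SE 0.65, adjusted p=0.0268). With Hoxb1, which had no read in the SCA-1+ cells, 3 of 9 members were called lower, where 5.58% of all genes were. Nothing is read from the Hoxb1 call, since the filter was passed only through libraries where this gene is high, and it was lost without Pαhi replicate 1 or 2 or either SCA-1+ library. Hoxb2 differed by 0.22±0.29 (adjusted p=0.649) and Hoxb4 by -0.32±0.63 (adjusted p=0.775). Hoxb3 had a log2 fold change of -1.06±0.53 (adjusted p=0.172). With either SCA-1+ library left out, the remaining 1 is assumed to vary like the other populations, and the highest adjusted p was 0.222 for Hoxb5 and 0.177 for Hoxb6, both uncalled. Without chondroblast replicate 3, 4 members were called, the fourth being Hoxb8. Relative to all 4 others, Hoxb6 was called lower in the SCA-1+ cells (-1.29±0.57, adjusted p=0.0886), where 6.80% of all genes were, but in 4 of 14 fits that left out 1 library. The 10 that lost it left out JAG1+ replicate 1 or 2, a Pαhi library, OCP replicate 3, chondroblast replicate 1 or 2 or an SCA-1+ library (highest adjusted p=0.372). Hoxb2 had the lowest adjusted p of the members there (1.02±0.23, adjusted p=0.00327) and was under the fold limit.

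Over the 9 tested members, 36 steps lie between neighbouring levels when each gene's 5 populations are ordered by mean CPM. The Hoxb1 step between the chondroblasts and SCA-1+ cells, neither of which had a read, could not pass. Of the steps of all tested genes, 18.5% reached an adjusted p of at most 0.1. This share was counted only for the fit to all 14 libraries. In that fit the cluster was close to it and did not stand out, with 7 of its 36 steps. They were the steps from the OCPs to the chondroblasts and from these to the JAG1+ LMPs for Hoxb2 (adjusted p=0.00985 and 0.0111), from the SCA-1+ cells to the JAG1+ LMPs for Hoxb4 (adjusted p=0.0631), from the OCPs to the chondroblasts for Hoxb5 (adjusted p=0.0485), from the Pαhi LMPs to the chondroblasts for Hoxb6 (adjusted p=0.0235), and from the JAG1+ to the Pαhi LMPs and from the OCPs to the chondroblasts for Hoxb9 (adjusted p=0.0783 and 0.0921). The lowest adjusted p among the steps of Hoxb1, Hoxb3, Hoxb7 and Hoxb8 was 0.107, for Hoxb3 from the SCA-1+ cells to the JAG1+ LMPs. Without chondroblast replicate 3, 15 steps passed, and whether the cluster stands out in that fit was not tested, since no share of all genes was counted for it.

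Of the Hox cofactor list, the Meis genes fell in the JAG1+ LMPs. In the JAG1+ against the Pαhi LMPs, 5 of 9 cofactor genes were called lower, where 4.42% of all genes were, and none higher. Among them were Meis1 (log2 fold change -2.61±0.45 SE, adjusted p=0.000735), Meis2 (-2.70±0.52, adjusted p=0.00175), and Meis3 (-1.37±0.43, adjusted p=0.0342). In the chondroblasts against the OCPs 3 were called lower, Meis1, Meis2 and Meis3, where 1.16% of all genes were, and 1 was called higher, Pknox2 (3.32±0.19, adjusted p=2e-07), where 6.60% of all genes were. These calls are given with all 14 libraries only, and the 3 Meis genes were lowest in chondroblast replicate 3. Meis2 stood at 115, 86.6 and 15.7 CPM in chondroblast replicates 1 to 3 and at 248, 221 and 217 CPM in the OCPs. Meis3 stood at 2.02, 2.22 and 0.432 CPM and at 9.00, 6.47 and 5.57 CPM. Whether the calls hold without that replicate is not given here.

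Over the 14 libraries, Meis2 was the gene most like Hoxb3 of 12972 candidates (Pearson r of log2 CPM=0.972), most like Hoxb4 (r=0.926), most like Hoxb5 (r=0.920) and most like Hoxb7 (r=0.922). Irx3 (r=0.953) and Irx5 (r=0.950) were most like Hoxb6. Hoxb2 was most like Klhdc10 (r=0.948), Hoxb8 most like Xbp1 (r=0.878) and Hoxb9 most like Car13 (r=0.929). These correlations are descriptions over libraries that fall into 5 populations. Without chondroblast replicate 3, r was 0.973 for Meis2 with Hoxb3 and 0.770 for Xbp1 with Hoxb8. In those 13 libraries Nr2f1 (0.965) was above Meis2 (0.920) for Hoxb4, and Meis1 (0.935) was above Meis2 (0.906) for Hoxb7. Among the members themselves, r ranged from 0.651 (Hoxb2 with Hoxb8) to 0.966 (Hoxb3 with Hoxb4) within Hoxb2 to Hoxb8, and from -0.228 (Hoxb4) to 0.207 (Hoxb8) for these with Hoxb9. Without chondroblast replicate 3 the values with Hoxb9 were all negative, from -0.758 (Hoxb4) to -0.384 (Hoxb8).

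Of the 29 other Hox genes, 27 were tested, and 4 were called lower and 4 higher in the JAG1+ against the Pαhi LMPs, where 4.42% and 2.58% of all genes were, with a median log2 fold change of -0.23, against 0.0025 over all tested genes. Those called lower were Hoxc4 (-2.42, adjusted p=0.00246), Hoxc5 (-2.40, adjusted p=0.0133), Hoxc6 (-1.97, adjusted p=0.00229) and Hoxd9 (-1.20, adjusted p=7.37e-05). Those called higher were the posterior genes Hoxa13 (4.89, adjusted p=1.95e-09), Hoxd11 (1.36, adjusted p=2.71e-06), Hoxd12 (2.11, adjusted p=3.23e-06) and Hoxd13 (3.79, adjusted p=2.93e-08). In the SCA-1+ cells against the Pαhi LMPs, Hoxc4 (-3.55, adjusted p=0.000637) was called lower. Its paralogue Hoxb4 had -0.32±0.63 there, and the difference between them was not tested.

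**Figure D4:**
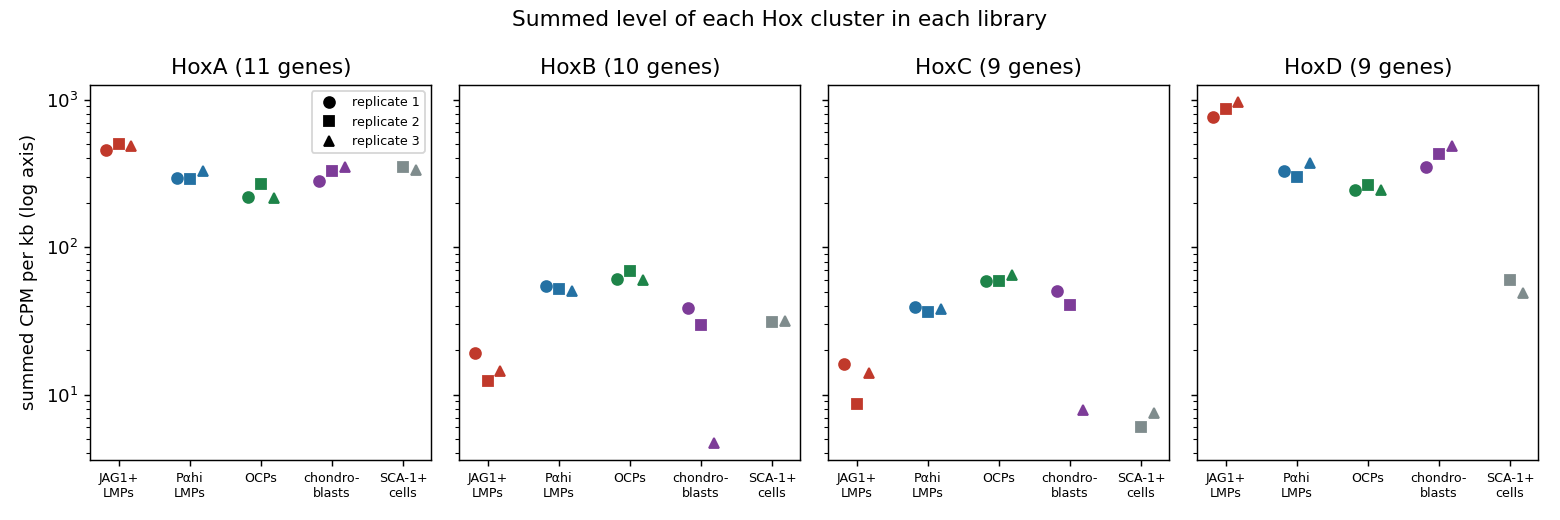
Summed CPM per kb of each Hox cluster (vertical log axis, shared) in the 14 libraries of the 5 populations; shapes give the replicate. In the JAG1+ LMPs HoxB (12.4 to 19.3) and HoxC lie below the Pαhi LMPs while HoxA and HoxD lie above, and in chondroblast replicate 3 HoxB and HoxC are low and HoxA and HoxD are not.

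Each HoxB gene has paralogues, the genes of the same number in the other clusters. On the CPM per kb scale, Hoxb3 made up 51.8±4.95% (SD, n=3) of the group of Hoxa3, Hoxb3 and Hoxd3 in the OCPs and 22.8±2.62% in the JAG1+ LMPs. Hoxb5 made up 14.4±1.92% of its group in the Pαhi LMPs and 2.73±1.44% in the JAG1+ LMPs. Hoxb9 made up 2.78±0.407% of the group 9 level in the JAG1+ LMPs and 0.246±0.196% in the OCPs. Hoxa9 alone stood at 208, 225 and 203 CPM in the JAG1+ LMPs.

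Within populations, the JAG1+, Pαhi and OCP libraries with the most Pitx1, a hindlimb selector gene, were also those with the most Hoxb8 and Hoxb9 of their population. In the Pαhi LMPs, Pitx1 stood at 2.11, 2.67 and 38.2 CPM and Hoxb9 at 2.60, 2.48 and 5.73 CPM. In the OCPs, Pitx1 stood at 29.4, 4.14 and 0.0723 CPM and Hoxb9 at 1.5, 1.24 and 0.0723 CPM. In the JAG1+ LMPs, Pitx1 stood at 23.6, 2.72 and 3.77 CPM and Hoxb9 at 9.42, 7.25 and 8.96 CPM. The 3 hindlimb markers together (Pitx1, Tbx4 and Isl1) ranged from 11.9 to 61.2 CPM in the Pαhi LMPs and from 44.0 to 76.6 CPM in the OCPs. In chondroblast replicates 1 to 3 they summed to 27.8, 27.8 and 33.4 CPM. There the order was the opposite, since replicate 3 had the least Hoxb8 (0 CPM) and Hoxb9 (0.118 CPM). SCA-1+ replicates 2 and 3 had 14.0 and 23.1 CPM of the markers and 1.96 and 2.10 CPM of Hoxb9. Without the 3 libraries with the most Pitx1, Hoxb9 in the JAG1+ against the Pαhi LMPs had a log2 fold change of 1.67±0.51 (SE, adjusted p=0.0359) and in the OCPs against the Pαhi LMPs one of -2.09±0.63 (adjusted p=0.0441). Hoxb9 then lost its call in the Pαhi LMPs relative to all others (1.00±0.42, adjusted p=0.183) and in the chondroblasts against the OCPs (-1.14±0.75, adjusted p=0.294), and it gained a call, lower, in the OCPs relative to all others (-1.61±0.56, adjusted p=0.0484). Hoxb8 lost its call in the chondroblasts against the OCPs (-1.63±0.71, adjusted p=0.116). These libraries were left out after their Pitx1 levels had been seen, and the part of the hindlimb markers in the Hoxb8 and Hoxb9 levels was not tested.

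Among the listed retinoic acid and Cdx genes, which act upstream of HoxB genes in the body axis, 2 of 16 tested were called lower and 2 higher in the JAG1+ against the Pαhi LMPs, where 4.42% and 2.58% of all genes were, with a median log2 fold change of -0.16. Cyp26b1, an enzyme that degrades retinoic acid, stood at 850, 789 and 861 CPM in the JAG1+ LMPs and at 221, 234 and 267 CPM in the Pαhi LMPs. Aldh1a2, an enzyme that makes it, stood at 72.2, 109 and 115 CPM in the chondroblasts and at most at 9.15 CPM elsewhere. Cdx4 had reads worth 3.05 CPM in JAG1+ replicate 3, the library with the most Hoxb1 and Hoxb13 reads, and at most 0.150 CPM elsewhere. Of the 9 forelimb field genes, among them Tbx5, 2 were called lower in the JAG1+ against the Pαhi LMPs, where 4.42% of all genes were, and 7 in the SCA-1+ cells against the Pαhi LMPs, where 5.58% of all genes were.

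The cluster also holds the microRNA genes Mir10a, between Hoxb4 and Hoxb5, and Mir196a-1, between Hoxb9 and Hoxb13. Poly(A) libraries count reads that fall in the hairpins, not mature microRNAs. Their mature sequences, from RefSeq on GRCm38, are shown with the seed (bases 2 to 8) in capitals because both genes lie within the cluster, and Mir196a-1, like its neighbour Hoxb9, had most of its reads in the JAG1+ LMPs.
mmu-miR-196a-5p: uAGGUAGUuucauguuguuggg
mmu-miR-10a-5p: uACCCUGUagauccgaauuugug
Mir196a-1 had 7, 15 and 9 counts in the JAG1+ LMPs, 1, 0 and 0 in the Pαhi LMPs, 2 and 1 in the SCA-1+ cells, and no count in the OCPs and chondroblasts. Mir10a had 3, 8 and 1 counts in the OCPs and at most 2 in any other library. Neither passed the filter on low counts or was tested. The antisense transcript Hoxb5os had 63 counts in JAG1+ replicate 3, 10 and 0 in the other JAG1+ libraries, between 26 and 35 in the OCPs and none in chondroblast replicate 3. Of the listed transcripts and genes at the cluster, Hoxb5os and Snx11 were tested. In the JAG1+ against the Pαhi LMPs, the log2 fold change of Hoxb5os was -0.41±0.88 (adjusted p=0.79) and that of Snx11 0.03±0.09 (adjusted p=0.828).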

How the data were processed

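RNA-seq counts of 14 libraries were used. Per the labels and the methods of the study, the authors sorted the cells by FACS, selected poly(A) RNA, sequenced single-end reads, aligned them with STAR to mm10 with 1 position kept per read, and counted with QuasR the reads that start in RefSeq mRNA exons; strand use is not given in the sources used here. The deposited values are whole counts without normalization and a transcript length per gene. Entrez identifiers were matched to RefSeq symbols (24374 of 24454). Gene coordinates came from the RefSeq gene annotation, and strands and exon overlaps from the GENCODE annotation of the same build, GRCm38. The HoxB members, gene lists and tests were chosen with earlier results of these data known.

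In R 4.3.3, edgeR 4.0.16 (filterByExpr by population, 15125 genes; TMM factors 0.957 to 1.06; biological coefficient of variation 13.4%) fitted a mean for each population to all libraries. Standard errors are the size of the log2 fold change divided by the square root of F. Comparisons of each population with the average of the remaining 4, of 4 pairs, of all 10 pairs for neighbouring levels, and a joint test were read from the same fit. Genes named are the members, genes of listed groups, and the 3 genes with the highest r for each member of at least 1 CPM (log2 CPM, prior count 2), of which the first are printed. Tested on simulated data with 200 changed genes, the comparison with the other populations recovered 200 with 0 false calls (14699 genes), that of 2 populations 200 with 2 (14714 genes) and the joint test 200 with 20 (14686 genes). Replicates differed beyond sampling noise (chi-square per degree of freedom 7.86 to 77.5). Alternatives were other scaling (DESeq2 1.42.0 size factors, unscaled totals), filter, test (DESeq2), limits, a replicate block, and fewer libraries. Library totals of 20316583 to 29162751 make 1 count worth about 0.0336 to 0.0498 CPM. A planned description of protein sequences was not made. Values of some listed genes are not reported here.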

Additional observations from a re-analysis of the deposited data

How the results depend on the processing

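The 11 main counts were the called HoxB members of each comparison, the members that differed in the joint test, and the differing neighbouring levels. Each was set against its value under each alternative. The value moved by over 1.5 times in 37 of these pairs of a count and an alternative and by less in 228. In the Pαhi LMPs against all others the number of called members was 2, in place of 4, at an adjusted p limit of 0.05, under DESeq2, without the SCA-1+ cells, with E10.5 populations only, and without both chondroblast and JAG1+ replicate 3. In the chondroblasts against all others it was 2, in place of 1, without the fold limit, under DESeq2 and without the SCA-1+ cells. In the SCA-1+ cells against all others it was 2, in place of 1, without the fold limit, and 0 at a limit of 0.05 and under DESeq2. In the OCPs against the Pαhi LMPs it was 2, in place of 1, without both of those replicates 3, which also gave 14 differing neighbouring levels in place of 7. In the chondroblasts against the OCPs it was 3, in place of 6, at a limit of 0.05.

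With 1 library left out, the counts ranged from 4 to 9 for the JAG1+ LMPs, from 1 to 4 for the Pαhi LMPs, from 1 to 5 for the chondroblasts and from 0 to 1 for the SCA-1+ cells against all others. They ranged from 0 to 2 for OCPs against Pαhi LMPs, from 3 to 6 for chondroblasts against OCPs and from 0 to 4 for SCA-1+ cells against Pαhi LMPs, and neighbouring levels from 4 to 15.

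For the JAG1+ LMPs against all others, Hoxb8 was called in 0 of the 14 fits that left out 1 library. The highest count given for them above therefore takes in Hoxb13, which failed the filter on low counts in the main fit. Nothing is read from that count. Against all others, the fitted log2 fold change of Hoxb1 in the JAG1+ LMPs, which depends on the prior count and is no bound, ranged from -3.15 to 4.65 with 1 library left out and was -3.15 without both replicates 3. For the chondroblasts, Hoxb3 ranged from -0.67 to 0.31 and was 0.33 without both replicates 3, and Hoxb4 ranged from -0.31 to 0.72. For the SCA-1+ cells, Hoxb4 ranged from -0.033 to 0.22 and was -0.10 without both replicates 3, and Hoxb9 was -0.58 with E10.5 populations only.

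Fits with the replicate number as a block gave 0 called members, in place of 1, in the SCA-1+ cells against all others and -0.025 for Hoxb4 in the chondroblasts. The numbers did not pair the samples throughout: r of the deviations ran from -0.181 to 0.308 over 26 same-numbered pairs, 4 of them over 0.1, and 5 of 14 libraries correlated best with their own number. In replicates 1 to 3, r was 0.308, 0.220 and -0.0182 for the JAG1+ LMPs with the OCPs. It was -0.181, 0.286 and -0.123 for the Pαhi LMPs with the OCPs. The 26 pairs include chondroblasts, of another stage. Whether samples of the same number shared a pool cannot be decided from these values. Leaving out both replicates 3 and leaving out the 3 libraries with the most Pitx1 were chosen after seeing the data. Without the SCA-1+ cells or with E10.5 populations only, neighbouring levels gave no value. The causes were not tested. Depth limits Hoxb1, Hoxb13 and Hoxb9 in the chondroblasts, with few counts.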
